A study of Arabidopsis thaliana with 6 samples.

Results

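Cotyledons of the double mutant sicy-192 gun1-101 were compared with cotyledons of the single mutant sicy-192, to describe what the loss of GUN1 added in plants that already carried sicy-192. The comparison rests on 4 of the 6 arrays of the study, 2 arrays titled sicy-192 gun1-101 and 2 titled sicy-192. The other 2 arrays, of the wild type, entered the fit and are given as a reference. All plants were Arabidopsis thaliana of ecotype Col-0, aged 4 days, raised on MS medium supplemented with 100 mM sucrose. Days had 16 h of light at 100 µmol per square metre and second and 25 °C, with 8 h of dark at 22 °C. Each genotype is represented by 1 line, and the labels call the arrays of a genotype biological replicates without saying whether plants were pooled or raised apart, so a p-value speaks of the spread among these arrays, which may be technical. The arrays held no gun1-101 plants without sicy-192, so that allele is described in the sicy-192 background only.

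Plants of the mutant sicy-192, named for cotyledons that turn yellow on sugar, carry an overactive form of a plastid invertase, an enzyme that splits sucrose. GUN1, a plastid protein with pentatricopeptide repeats, takes part in the signalling by which damaged plastids lower the expression of nuclear photosynthesis genes. Plastid genes are read by a bacterial-type RNA polymerase, whose core subunits are encoded in the plastid by rpoA, rpoB, rpoC1 and rpoC2, and by a phage-type polymerase encoded in the nucleus. The thylakoid complexes and the plastid ribosome combine subunits from both genomes, so nuclear and plastid genes are described apart.

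RNA was measured on 1-colour Affymetrix arrays, 1 value of signal intensity per probe set. The replicates of a genotype correlated at 0.979 to 0.983 across 14785 probe sets that are not independent of each other. The ratio of 3' to 5' signal was 6.14 and 4.00 for actin in sicy-192 (replicates 1 and 2) and 6.73 and 4.47 in the double mutant, so it differed more by replicate number than by genotype. The bacterial spike bioB, added as a control, also split the arrays by replicate number, with 3' signals of 379 and 68.8 in the replicate 1 and replicate 2 arrays of sicy-192. No probe set was named for GUN1 or for the plastid invertase gene INV-E, so the labels could not be checked on the mutated genes. Of the markers of green cotyledon tissue, PRK (AT1G32060), SBPASE (AT3G55800) and RCA (AT2G39730) were named and had signals of at least 2967 in each array. PYK10 (AT3G09260), listed as a root marker, had high signals in all cotyledon arrays, those of wild type (21216 and 20158) included. It had 21943 and 17665 in sicy-192 and 20488 and 16879 in the double mutant (log2 change -0.08, limma adjusted p = 0.782). Whether this signal came from root tissue was not tested. The root marker EXPA7 and the meristem marker CLV3 were too dim to be tested, and no seed marker was named.

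Plastid-encoded transcripts fell nearly as a whole in the double mutant, while nuclear genes moved in both directions. Of the 66 tested plastid-encoded genes, 56 fell in limma at an adjusted p under 0.05, which is 84.8% of them, and the other 10 did not pass. Among all 14785 tested probe sets, 20.7% were called, 9.54% as higher and 11.2% as lower. Among 7946 tested nuclear genes, 693 rose (8.72%) and 830 fell (10.4%), in all 19.2%. At least 2-fold falls that were called made up 78.8% of the plastid genes, 3.27% of the nuclear genes and 3.69% of all probe sets, and rises of that size made up 3.45% of the nuclear genes and 4.1% of all probe sets. Both double-mutant arrays lay below both sicy-192 arrays for 62 plastid genes (93.9%), against 34.9% of nuclear genes and 34.8% of all probe sets. The reverse order held for 27.3% of nuclear genes and 27.6% of all probe sets. The 56 plastid falls included 22 of at least 4-fold, and 274 nuclear rises and 260 nuclear falls were at least 2-fold. The median log2 change was -1.68 for plastid-encoded genes, -0.05 for nuclear genes and -0.05 for all probe sets. Changes are given throughout as log2(signal + 16) of the double mutant minus sicy-192, with the standard error of the fit, and the added 16 makes the change of dim probe sets look smaller than it was. With 1 of the 4 arrays left out, the plastid calls numbered 49 and 54 (without sicy-192 replicate 1 and 2) and 48 and 51 (without double-mutant replicate 1 and 2). The calls among all probe sets fell from 3060 to 1727, 2020, 1709 and 1456 in the same order. Within the replicate 1 arrays the plastid median was -2.01 and within the replicate 2 arrays it was -1.39. In whole cotyledons, fewer plastids or cells and less RNA in each of them cannot be told apart.

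**Figure D1:**
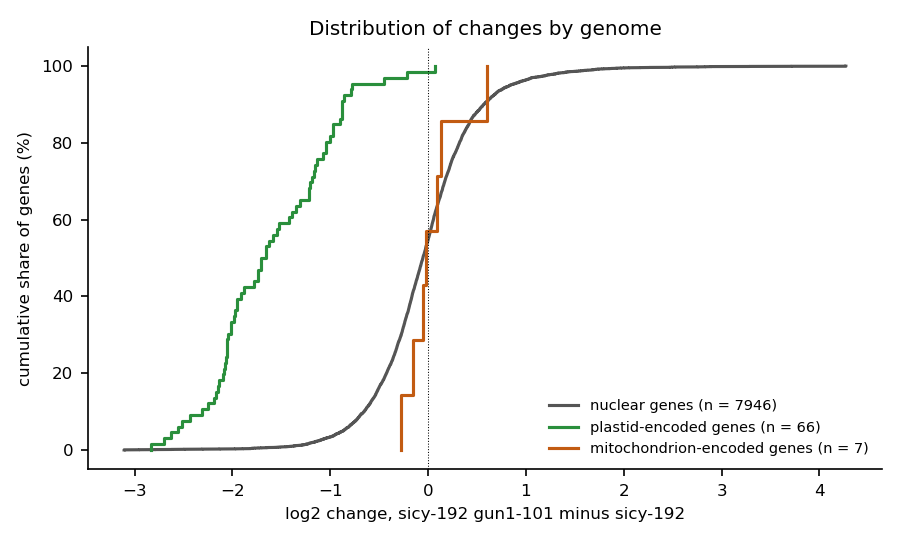
Cumulative share of genes (y axis, %) by log2 change between the double mutant and sicy-192 (x axis), for 7946 nuclear, 66 plastid-encoded and 7 mitochondrion-encoded genes. The plastid curve lies to the left of the nuclear one, with a median of -1.68 against -0.05, and the mitochondrial median is -0.02.

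Of the genes of the plastid RNA polymerase itself, rpoC2 and rpoC1 were among those that fell most, and rpoA lay near the plastid median of -1.68. For rpoC2, a core subunit, the signal was 3931 and 3251 in the sicy-192 arrays (replicates 1 and 2) and 429.7 and 557 in the double mutant, a log2 change of -2.83 ± 0.18 (adjusted p = 7.14e-05). The neighbouring subunit gene rpoC1 went from 5796 and 5689 to 910.3 and 1205 (-2.44 ± 0.16, adjusted p = 7.68e-05), and rpoA, for the alpha subunit, from 17806 and 13028 to 4363 and 5297 (-1.66 ± 0.21). All 3 passed, and their groups did not overlap. In wild type, rpoC2 had 1219 and 1445 and rpoC1 had 2633 and 2670.0, so both were higher in sicy-192 than in wild type and lower in the double mutant than in wild type (log2 changes against wild type of 1.42 and -1.41 for rpoC2, and of 1.11 and -1.33 for rpoC1). These comparisons share arrays. The remaining core subunit gene, rpoB, was too dim to be tested, with 66.2 and 68.9 in sicy-192 and 28.2 and 33.0 in the double mutant. The list of genes read mainly by the nucleus-encoded polymerase had 4 tested members, clpP, accD, rpoC1 and rpoC2, and all 4 fell.

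Photosystem genes of the plastid fell in most cases. Photosystem I takes electrons from plastocyanin and passes them to ferredoxin. Its core gene psaB went from 8857 and 5473 in sicy-192 to 1342 and 1027 in the double mutant (-2.55 ± 0.26, adjusted p = 0.000372), having been at 21945 and 15259 in wild type. The partner gene psaA had low signals, 87.8 and 52.7 in sicy-192 and 20.7 and 20.6 in the double mutant, the latter near the added 16 (-1.20 ± 0.28, adjusted p = 0.0152; not called without sicy-192 replicate 1 or double-mutant replicate 1 or 2, adjusted p up to 0.11). The small subunit psaI (-2.06 ± 0.19) and the assembly factors ycf3 (-2.31 ± 0.28) and ycf4 (-1.39 ± 0.25) fell too. The small subunit psaJ did not pass (361 and 427 against 123 and 297, -0.97 ± 0.55, adjusted p = 0.247), although its groups did not overlap.

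Photosystem II, which splits water, had 15 tested plastid genes, of which 11 fell. The antenna subunit gene psbC was at 850.4 and 536 in sicy-192 and 174 and 210.0 in the double mutant (-1.74 ± 0.23, adjusted p = 0.0012). Its wild-type signals of 7600.1 and 5688 place it among the genes already low in sicy-192 (log2 change -3.25 against wild type) that went lower still. The same order of the genotypes held for psbH (2166 and 2490.3 in wild type, 163 and 154 in the single and 68.8 and 72.6 in the double mutant, -1.0 ± 0.16 between the mutants) and for psbA, which encodes the reaction centre protein D1 (228 and 341 to 93.6 and 106, -1.35 ± 0.23). Further falls were those of the cytochrome b559 genes psbE (-1.63 ± 0.18) and psbF (-2.04 ± 0.21) and of the small subunit genes psbZ (-1.70 ± 0.17), psbJ (-1.70 ± 0.22) and psbL (-1.97 ± 0.50; not called without sicy-192 replicate 2 or double-mutant replicate 1, and without the filter on low signals, adjusted p up to 0.0969). The small subunit gene psbM had a smaller change and went from 17859 and 16398 to 9468 and 9129.8 (-0.88 ± 0.15, adjusted p = 0.00415). Not passing were psbB (47.3 and 46.8 against 36.1 and 40.3, adjusted p = 0.626), psbT (-1.21, adjusted p = 0.0545), psbI (-0.45, adjusted p = 0.583) and psbK (-0.90, adjusted p = 0.494). The replicates of psbK stood far apart, with 3319 and 518 in sicy-192 and 1179 and 415 in the double mutant. In wild type psbB had 211 and 352, and it was under 50 in all 4 mutant arrays.

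psbN, an assembly factor gene on the strand opposite to the psbB operon, had the second largest fall among the named and tested plastid genes. Its signal was 115 and 63.0 in wild type, 1152 and 534 in sicy-192 and 169 and 65.6 in the double mutant (-2.70 ± 0.44, adjusted p = 0.00322). Against wild type it was called higher in sicy-192 (2.98, adjusted p = 0.00156) and was not called in the double mutant (0.27, adjusted p = 0.674).

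**Figure D2:**
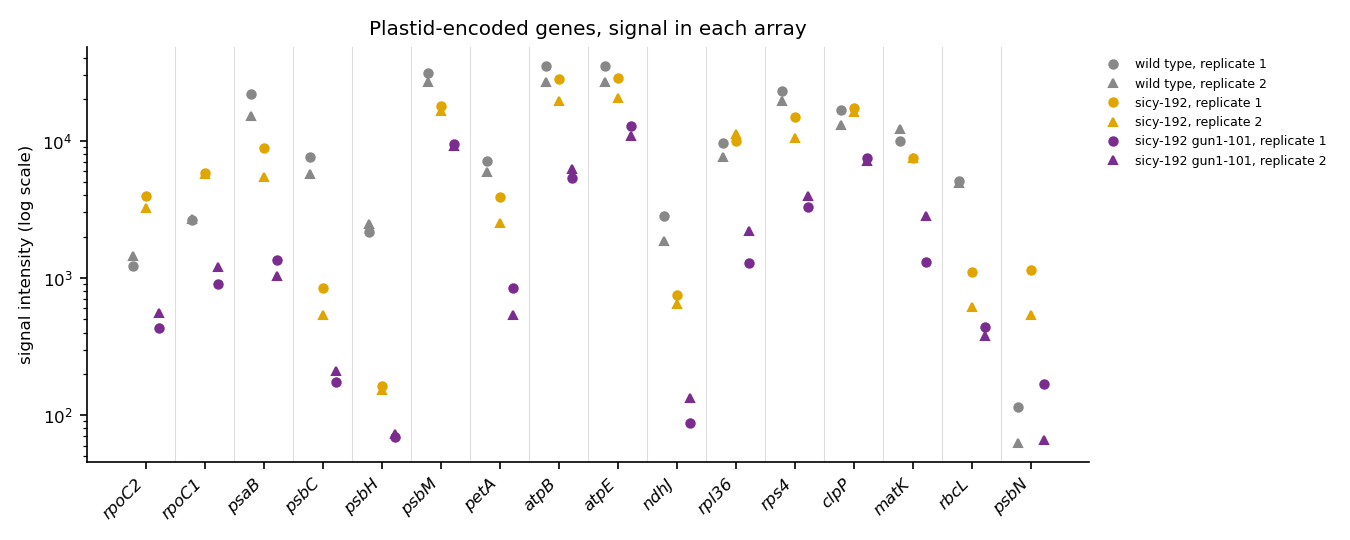
Signal intensity (y axis, log scale) of 16 plastid-encoded genes in each of the 6 arrays, circles for replicate 1 and triangles for replicate 2. For rpoC2 the sicy-192 arrays (3931 and 3251) lie above wild type and the double mutant (429.7 and 557) below it, while psbC and rbcL step down from wild type to sicy-192 to the double mutant.

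The other thylakoid complexes gave the same direction. All 6 ATP synthase genes fell. Between sicy-192 and wild type these genes did not pass, with log2 changes between -0.75 (atpF, adjusted p = 0.0571) and -0.03 (atpA, adjusted p = 0.963). atpB, for the beta subunit, was at 34851 and 26651 in wild type, 28099.9 and 19589.6 in sicy-192 and 5353 and 6232 in the double mutant (-2.02 ± 0.21, adjusted p = 0.000424). atpA (-2.06 ± 0.40; not called without double-mutant replicate 2, adjusted p = 0.0508), atpH (-2.06 ± 0.33), atpF (-1.98 ± 0.25) and atpI (-1.92 ± 0.32) were close to it, and atpE had a smaller change (28545 and 20342 to 12696 and 10777, -1.04 ± 0.21; not called without sicy-192 replicate 1 or double-mutant replicate 2, adjusted p up to 0.0639). All 9 tested genes of the NDH complex, which returns electrons to the plastoquinone pool, fell as well. ndhJ went from 751 and 644 to 88.2 and 132 (-2.52 ± 0.23, adjusted p = 0.000255) and ndhK from 549 and 292 to 83.7 and 70.5 (-2.17 ± 0.28), while ndhI changed from 18175 and 14722 to 5554 and 7858 (-1.31 ± 0.20). Of 6 genes of the cytochrome b6f complex, which links the photosystems, 3 fell. They were petA, for cytochrome f (3878 and 2503 to 839 and 537, -2.19 ± 0.25), petB (-1.14 ± 0.20) and petN (-1.04 ± 0.26; not called without sicy-192 replicate 1 or 2 or double-mutant replicate 1 or 2, and without the filter on low signals, adjusted p up to 0.0917). petD, petG and petL did not pass (log2 changes -0.77, -0.86 and -1.52, adjusted p = 0.14, 0.299 and 0.162).

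Genes of the plastid ribosome fell to a similar extent, 13 of 15, with a median of -1.78. rpl36 went from 9990.0 and 11139 in sicy-192 to 1293 and 2205 in the double mutant (-2.63 ± 0.24, adjusted p = 0.000211), and rps2 from 6588 and 5354 to 1189.8 and 1492 (-2.14 ± 0.18). Neither was called in sicy-192 against wild type, where the log2 changes were 0.30 (adjusted p = 0.381) and 0.48 (adjusted p = 0.0856). rps4 went from 14884 and 10453 to 3301 and 3974 (-1.78 ± 0.20). rpl33 did not pass (-0.88, adjusted p = 0.124), and rps14 was low in all 4 arrays (48.4 and 58.5 in the single and 64.3 and 49.8 in the double mutant, 0.07, adjusted p = 0.881). The estimate of rps14 was the 1 among 66 that was not below 0.

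Among the plastid genes of other functions, matK, a maturase for introns, went from 7432 and 7520.2 to 1296 and 2848 (-1.95 ± 0.30, adjusted p = 0.00236). ccsA, for cytochrome assembly (-2.05 ± 0.22), and cemA, an envelope protein gene (-2.08 ± 0.22), fell as well. The protease subunit gene clpP went from 17221 and 16216 to 7523 and 7143 (-1.19 ± 0.16), and rbcL, whose product is the large Rubisco subunit, from 1098 and 609.6 to 441 and 379 (-0.98 ± 0.24; not called without sicy-192 replicate 1 or double-mutant replicate 1 or 2, adjusted p up to 0.111), after 5116 and 4912 in wild type. accD, for acetyl-CoA carboxylase in fatty acid synthesis, passed narrowly (223 and 139 to 111 and 82.0, -0.78 ± 0.24, adjusted p = 0.0469), and its call was lost under 11 of 16 alternatives, among them those without sicy-192 replicate 1, either double-mutant array or either wild-type array (adjusted p up to 0.284).

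Neighbouring genes of a transcription unit had close estimates in some units and distant ones in others. Transcription units here are the operons known for land plants, and the order of genes is that of the TAIR10.1 assembly. In the unit rps2-atpI-atpH-atpF-atpA, all 5 genes fell, with changes between -2.14 (rps2) and -1.92 (atpI). In psbE-psbF-psbL-psbJ all 4 fell, between -2.04 and -1.63. The unit accD-psaI-ycf4-cemA-petA had 5 falls between -2.19 (petA) and -0.78 (accD), and the rpl23 operon had 7 falls between -2.63 (rpl36) and -1.21 (rps3). In psbB-psbT-psbH-petB-petD, 2 of 5 genes fell, with a median of -1.0. That unit had a median of -2.2 in sicy-192 against wild type, and its members psbB and petD had 47.3 and 46.8 and 53.4 and 92.4 in sicy-192. In psaA-psaB-rps14 the estimates ran from -2.55 (psaB) to 0.07 (rps14). In petL-petG-psaJ-rpl33-rps18, 1 of 5 genes was called as a fall, although the estimates lay between -1.52 (petL) and -0.86 (petG). Standard errors in that unit reached 0.71 (petL), and the called rps18 and the uncalled rpl33 both had -0.88. In all, 8 of the 66 genes had a double-mutant mean under 50, where the added 16 and the array's background limit the measured fall. The 64 genes that were lower in both same-numbered pairs of arrays leave out psbI and rps14.

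**Figure D3:**
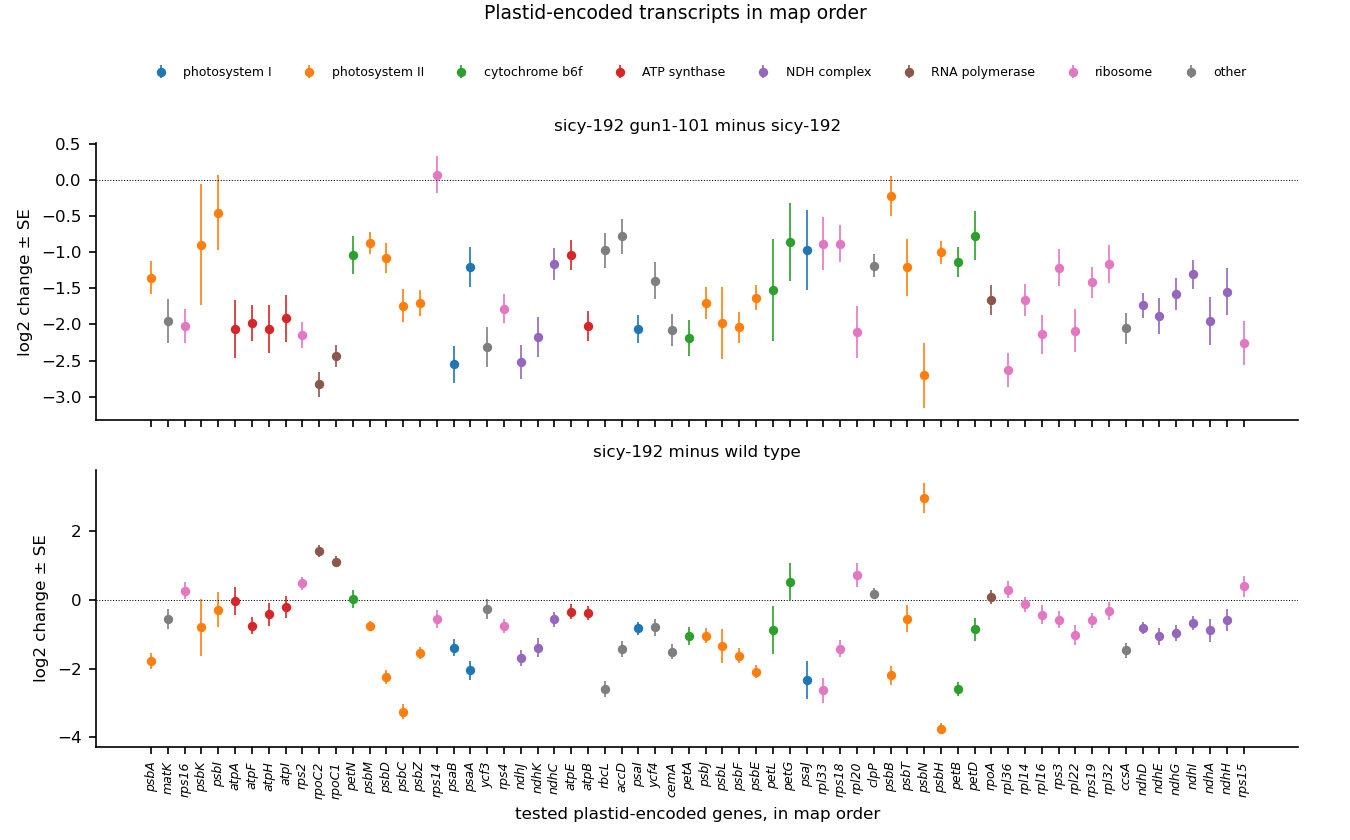
Log2 change ± SE (y axes) of the 66 tested plastid-encoded genes in map order (x axis), coloured by function, for the double mutant minus sicy-192 (top) and sicy-192 minus wild type (bottom). In the top panel 65 genes lie below 0, and in the bottom panel rpoC1, rpoC2 and psbN lie above it, at 1.11, 1.42 and 2.98. The panels share the sicy-192 arrays.

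Other RNAs that lack a long poly(A) tail were read beside the plastid genes. The control probe set for cytosolic 25S ribosomal RNA was at 1378 and 1173 in sicy-192 and 7778 and 8361 in the double mutant, a difference of 2.65 on the log2 scale in the opposite direction. The wild-type arrays had 452 and 1763 for this probe set. The 5S ribosomal RNA probe set was at 33.1 and 65.7 in sicy-192 and 27.0 and 51.6 in the double mutant. Of 7 tested mitochondrion-encoded genes, 0 were called by limma, and 1 had an unadjusted p under 0.05. With the replicate number as a block, 1 of the 7 was called. Their median log2 change was -0.02, with nad4 at 1173 and 1498 in sicy-192 and 1415 and 1212 in the double mutant (-0.02 ± 0.18) and cox1, for a subunit of cytochrome oxidase, at 393 and 239 in sicy-192 and 436 and 259.6 in the double mutant (0.13 ± 0.28). The largest mitochondrial change was that of ccb452, at 304 and 212 in sicy-192 and 506 and 307 in the double mutant. Its groups did not overlap, and it was not called (0.60 ± 0.26, limma adjusted p = 0.136). The part of the 25S ribosomal RNA signal in the plastid fall was not tested.

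Named nuclear genes for the thylakoid complexes moved the other way, from low levels in sicy-192 towards those of wild type. Gene lists were covered in part, since many probe sets had no gene name. For the thylakoid complexes, 10 of 50 listed nuclear genes were named. The shares of 8.72% higher and 10.4% lower among nuclear genes are the background for the counts that follow. Of the 10 tested nuclear genes of photosystems, ATP synthase, NDH complex and cyclic electron flow, 6 rose and 4 did not pass (median 0.75). The photosystem I subunit gene PSAN (AT5G64040) was at 23652 and 17203 in wild type, 6596 and 5446 in sicy-192 and 12533 and 11575 in the double mutant (1.0 ± 0.19, adjusted p = 0.00561). PSB27 (AT1G03600) and PSBY (AT1G67740), of photosystem II, rose from 4869.7 and 4392 to 8085 and 7839 (0.78 ± 0.16; not called without sicy-192 replicate 2, adjusted p = 0.0582) and from 6725 and 5944 to 11918 and 10205 (0.80 ± 0.19; not called without sicy-192 replicate 2 or double-mutant replicate 1, and without the filter on low signals, adjusted p up to 0.0888). Among the nuclear subunits of the NDH complex, NdhN and NdhL went up, while all tested plastid subunits of the same complex went down. NdhN (AT5G58260) went from 953 and 912 to 1795 and 2201 (1.08 ± 0.20, adjusted p = 0.00541) and NdhL (AT1G70760) from 788 and 758 to 1341 and 1584 (0.90 ± 0.16, adjusted p = 0.00452). For the photosystem I subunit PSAE-1 (AT4G28750) the estimate did not pass (0.72 ± 0.26, adjusted p = 0.0784).

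Antenna proteins pass light energy to the photosystems. The 3 tested antenna genes, of 20 listed and all for the minor light-harvesting protein CP29, rose. LHCB4.3 (AT2G40100) was at 3918 and 3827 in wild type, 727 and 586 in sicy-192 and 2313 and 2482 in the double mutant (1.85 ± 0.15, adjusted p = 0.000128). LHCB4.2 (AT3G08940) went from 5619 and 3958 to 11239.9 and 9432 (1.12 ± 0.21) and LHCB4.1 (AT5G01530) from 11939.6 and 9546 to 21234 and 15732 (0.77 ± 0.21; not called without sicy-192 replicate 2 or double-mutant replicate 1, and without the filter on low signals, adjusted p up to 0.157). In all 3 the double mutant stayed below wild type, at -0.69, -1.04 and -0.64 on the log2 scale against it, each called in limma. The 4 tested Calvin cycle genes, of 22 listed, gave the same picture, with 3 rising. PRK, for phosphoribulokinase, went from 3697 and 2967 to 8981 and 8485 (1.39 ± 0.17), the phosphoglycerate kinase gene AT1G56190 from 1375 and 1211 to 4790.4 and 4832 (1.89 ± 0.14) and SBPASE, a regulated phosphatase of the cycle, from 4645 and 4168 to 8539.6 and 9332 (1.02 ± 0.14). In wild type, PRK had 22739 and 17759, AT1G56190 had 7890.3 and 6737 and SBPASE had 17363 and 15646. RCA, for Rubisco activase, was at 17739.8 and 12721 in sicy-192 and 26088 and 18313 in the double mutant and did not pass (0.54 ± 0.25, adjusted p = 0.16).

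**Figure D4:**
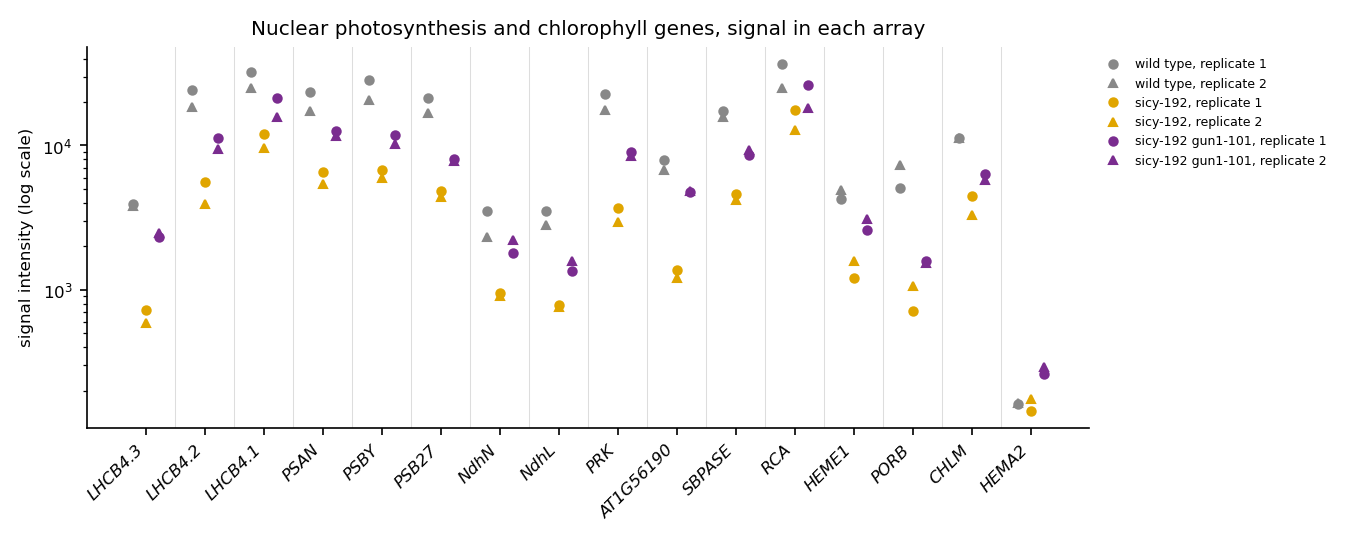
Signal intensity (y axis, log scale) of 16 nuclear genes of photosynthesis and chlorophyll synthesis in each of the 6 arrays, circles for replicate 1 and triangles for replicate 2. Double-mutant arrays of LHCB4.3 (2313 and 2482) lie between sicy-192 (727 and 586) and wild type (3918 and 3827), and the group means of the other genes, HEMA2 excepted, show that order.

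Tetrapyrrole synthesis, which makes chlorophyll and haem, had 4 rises among 9 tested genes, and the other 5 did not pass (median 0.34). Its list held 31 genes, of which 10 were named. HEME1 (AT3G14930), a uroporphyrinogen decarboxylase gene, went from 1215 and 1579 to 2597 and 3098 (1.03 ± 0.17, adjusted p = 0.00353). PORB (AT4G27440), for protochlorophyllide reductase, went from 709 and 1054 to 1580.3 and 1527 (0.83 ± 0.22; not called without sicy-192 replicate 1 or double-mutant replicate 1 or 2, and without the filter on low signals or without the variance trend, adjusted p up to 0.157) and CHLM (AT4G25080), a methyltransferase of the chlorophyll branch, from 4434 and 3318 to 6324 and 5721 (0.65 ± 0.17; not called without sicy-192 replicate 2 or double-mutant replicate 1 or 2, and without the filter on low signals, adjusted p up to 0.162). PORB remained far from its wild-type signals of 5075 and 7272 (log2 change -1.96 for the double mutant against wild type). HEMA2 (AT1G09940), for the enzyme that starts the pathway, rose from 146 and 175 to 261 and 292 (0.73 ± 0.19; not called without sicy-192 replicate 1 or double-mutant replicate 1 or 2, and without the filter on low signals, adjusted p up to 0.138), above its wild-type signals of 163 and 165. HEME2 (AT2G40490; 0.20, adjusted p = 0.418) and the geranylgeranyl reductase gene AT1G74470 (0.34, adjusted p = 0.209) did not pass.

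Nuclear genes of the plastid ribosome were called in both directions. Of 10 tested plastid ribosomal protein genes encoded in the nucleus, from 39 listed, 1 rose and 1 fell (median 0.06), near the 19.2% called among nuclear genes. This stands beside 13 falls among 15 genes encoded in the plastid. AT1G29070, for ribosomal protein L34, went from 6103 and 6952 to 8827 and 9513 (0.49 ± 0.14), and AT5G24490, for a plastid-specific ribosomal protein, from 2619.5 and 2329 to 1758 and 1631 (-0.54 ± 0.15). Both calls were lost under 6 of 16 alternatives, with each of the 4 arrays left out among them (adjusted p up to 0.237 and 0.177). The chaperonin gene Cpn60beta2 (AT3G13470; 0.23, adjusted p = 0.469) and the gene AT5G15700 for a phage-type RNA polymerase of mitochondria and plastids (0.32, adjusted p = 0.298) did not pass. TAPX (AT1G77490), for the thylakoid ascorbate peroxidase, went from 698 and 575 to 1011 and 988 (0.64 ± 0.19; not called without sicy-192 replicate 1 or 2 or double-mutant replicate 1 or 2, and without the filter on low signals or without the variance trend, adjusted p up to 0.17), against 3703 and 2601 in wild type.

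Single regulators of light response and stress rose. HYH (AT3G17609), a bZIP factor related to the photomorphogenesis regulator HY5, was at 545 and 572 in wild type, 767 and 812 in sicy-192 and 1485 and 1671 in the double mutant (0.98 ± 0.14, adjusted p = 0.00162). GI (AT1G22770), a clock and flowering gene, went from 477 and 627 to 1135 and 1172 (1.05 ± 0.20, adjusted p = 0.00564), and it was the 1 named gene of the clock list, with no time of harvest given. STZ (AT1G27730), a zinc finger gene induced by salt, cold and reactive oxygen, went from 67.4 and 73.1 to 347 and 455 (2.26 ± 0.46, adjusted p = 0.00836; not called without double-mutant replicate 2, adjusted p = 0.063). The groups did not overlap for HYH, GI or STZ.

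Cold and heat genes gave some of the largest rises. Named were 4 of 26 listed genes for cold, drought and abscisic acid, and 4 of 22 for heat shock. COR15A (AT2G42540), for a cold-regulated protein of the plastid stroma, was at 324 and 203 in wild type, 174 and 49.0 in sicy-192 and 2358 and 880.4 in the double mutant (3.71 ± 0.53, adjusted p = 0.00164). Its neighbour COR15B (AT2G42530) went from 46.4 and 24.9 to 479 and 377 (3.13 ± 0.27, adjusted p = 0.000166), with 77.9 and 99.5 in wild type. The replicate 1 arrays were the higher of each pair for COR15A, in all 3 genotypes. Of the other tested members of that list, COR47 (AT1G20440) was at 312 and 189 in sicy-192 and 397 and 328 in the double mutant (0.54, adjusted p = 0.201) and LTI30 (AT3G50970) at 259.7 and 36.2 against 258 and 155 (0.85, adjusted p = 0.409), so 2 of 4 rose. The 3 tested heat shock genes, all small heat shock proteins that hold unfolding proteins, rose. AT2G29500, a cytosolic member, went from 379.9 and 155 to 2823 and 1303 (2.89 ± 0.41), and AT1G53540 from 43.9 and 12.9 to 1346 and 320.4 (4.02 ± 0.57), with wild-type signals of 251 and 214 for the former and 40.2 and 36.2 for the latter. The gene of the endoplasmic reticulum, ATHSP22.0 (AT4G10250), went from 48.5 and 9.01 to 432 and 103 (2.53 ± 0.62, adjusted p = 0.0199; not called without sicy-192 replicate 2 or double-mutant replicate 1, and without the filter on low signals, adjusted p up to 0.131). Double-mutant replicates of these 3 heat shock genes differed by more than 2-fold, replicate 1 being higher. The mitochondrial small heat shock gene AT5G51440, counted below with the mitochondrial stress response, did not rise (-0.36, limma adjusted p = 0.243). Folding factors of the endoplasmic reticulum had 2 tested members. The calreticulin gene CRT1b (AT1G09210) went down from 2656 and 1792 to 1490.3 and 1176 (-0.71 ± 0.20; not called without sicy-192 replicate 1 or double-mutant replicate 2, and without the filter on low signals or without the variance trend, adjusted p up to 0.204), and AT5G07340, for calnexin, did not pass (-0.46, adjusted p = 0.06).

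Genes of detoxification were called in both directions. UDP-glycosyltransferases attach sugars to small molecules, and 8 of 24 tested genes of the family rose and 2 fell (median 0.29). UGT84A3 (AT4G15490), whose enzyme glucosylates hydroxycinnamates, was at 144 and 209 in sicy-192 and 1341 and 1441 in the double mutant (2.89 ± 0.19, adjusted p = 7.68e-05), and UGT73C1 (AT2G36750) from 338 and 496 to 1676 and 1765 (2.03 ± 0.19), after 70.0 and 74.0 in wild type. UGT73B1 (AT4G34138; 1.71 ± 0.22), UGT87A2 (AT2G30140; 1.48 ± 0.19) and UGT71C4 (AT1G07250; 1.33 ± 0.15) also rose. Of 8 tau glutathione transferase genes, 2 rose and 2 fell. GSTU25 (AT1G17180) went from 39.3 and 29.4 to 275 and 287 (2.57 ± 0.25) and GSTU16 (AT1G59700) from 219.6 and 226 to 839.5 and 1014 (1.98 ± 0.17), while GSTU27 (AT3G43800) went down from 2671 and 1834 to 1189 and 985 (-1.02 ± 0.21; not called without sicy-192 replicate 1 or double-mutant replicate 2, adjusted p up to 0.0755). The fourth, GSTU20 (AT1G78370), belongs to glucosinolate synthesis.

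Glucosinolates are sulfur-rich defence compounds of this plant family, and 3 of 4 tested genes of their synthesis fell (median -1.29). The list held 30 genes, of which these 4 were named. BCAT4 (AT3G19710), for the aminotransferase that starts the chain elongation of methionine, was at 4369 and 1828 in wild type, 1561 and 769 in sicy-192 and 394 and 204 in the double mutant (-1.89 ± 0.45, adjusted p = 0.0166; not called without sicy-192 replicate 1 or double-mutant replicate 2, and without the filter on low signals, adjusted p up to 0.115). GSTU20 went from 9534 and 7022 to 3307 and 3015 (-1.37 ± 0.19, adjusted p = 0.0014) and UGT74B1 (AT1G24100), for the glucosyl transfer that makes desulfoglucosinolates, from 1774 and 1138 to 704 and 514 (-1.22 ± 0.24; not called without double-mutant replicate 2, adjusted p = 0.062). The groups did not overlap in any of these. The related transferase gene AT2G31790 had an estimate of the other sign that did not pass (0.57 ± 0.18, adjusted p = 0.0549). GSTU20 and UGT74B1 are also members of the families above.

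**Figure D5:**
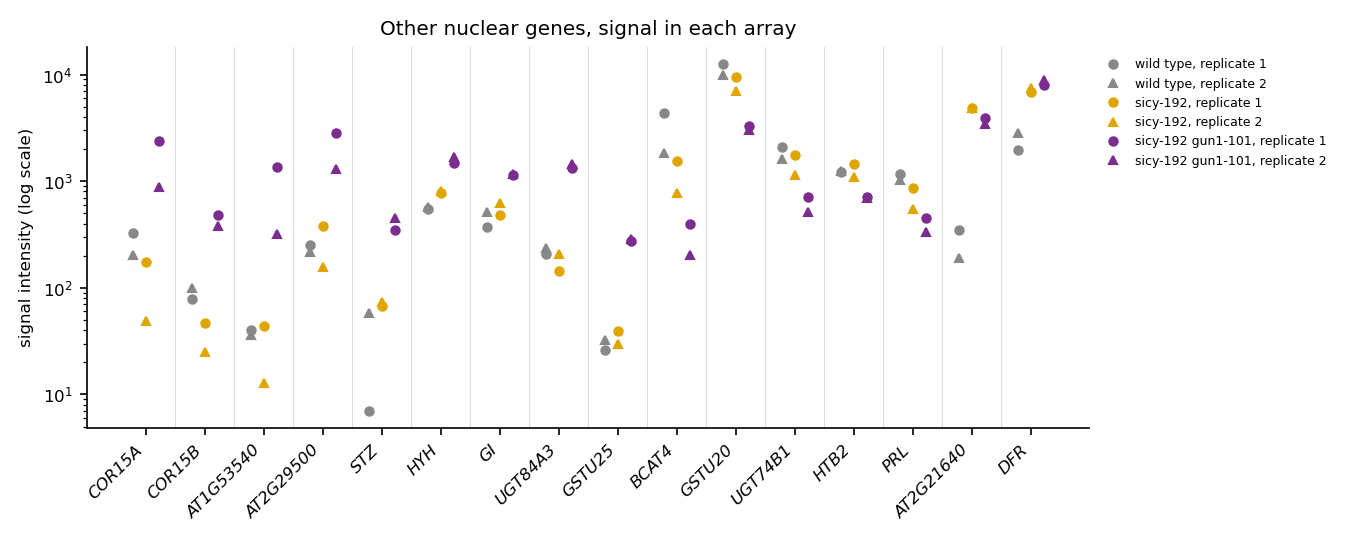
Signal intensity (y axis, log scale) of 16 nuclear genes outside photosynthesis in each of the 6 arrays, circles for replicate 1 and triangles for replicate 2. COR15A to GSTU25 are higher in the double mutant than in sicy-192, BCAT4 to PRL are lower, and AT2G21640 and DFR, which were high in sicy-192, did not pass the test between the mutants.

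Histone and replication genes were mostly lower. Of 6 tested histone genes, 4 fell and 1 rose (median -0.54). The H2B gene HTB2 (AT5G22880) went from 1442 and 1094 to 708 and 691 (-0.83 ± 0.16, adjusted p = 0.00676), and its wild-type signals of 1223 and 1242 lay with sicy-192. HTB1 (AT1G07790; -0.63 ± 0.14; not called without sicy-192 replicate 1 or double-mutant replicate 2, adjusted p up to 0.0986), HTB11 (AT3G46030; -0.45 ± 0.13; not called without sicy-192 replicate 1 or 2 or double-mutant replicate 1 or 2, and without the variance trend, adjusted p up to 0.159) and HTR12 (AT1G01370), for the histone H3 of centromeres (205 and 132 to 92.7 and 43.2, -1.17 ± 0.34; not called without sicy-192 replicate 1 or double-mutant replicate 2, and without the filter on low signals, adjusted p up to 0.221), fell too. The linker histone gene HIS1-3 (AT2G18050), which is known to respond to drought, rose from 65.2 and 29.2 to 225 and 107 (1.5 ± 0.40; not called without sicy-192 replicate 2 or double-mutant replicate 1, and without the filter on low signals, adjusted p up to 0.183). PRL (AT4G02060), for the replication helicase subunit MCM7, went from 867 and 544 to 452 and 330.1 (-0.81 ± 0.23; not called without sicy-192 replicate 1 or double-mutant replicate 2, and without the filter on low signals or without the variance trend, adjusted p up to 0.219), and it was the 1 named gene of the cell cycle list.

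Cell wall and peptidase families also held more falls than rises. Of 16 expansin and xyloglucan endotransglucosylase genes, which loosen the wall, 4 fell and 12 did not pass (median -0.46). XTH16 (AT3G23730) went from 1096 and 1077 to 380.2 and 600.0 (-1.16 ± 0.22, adjusted p = 0.00579), and EXPA20 (AT4G38210), which was high in sicy-192, from 622 and 464 to 296 and 293 (-0.83 ± 0.19; not called without sicy-192 replicate 1 or double-mutant replicate 1 or 2, adjusted p up to 0.116). XTH18 (AT4G30280) had an estimate of 1.26 ± 0.52 that did not pass (adjusted p = 0.117). Of 13 serine carboxypeptidase-like genes, 5 fell and 8 did not pass (median -0.60), led by SCPL27 (AT3G07990; 186 and 242 to 55.7 and 80.5, -1.46 ± 0.23) and scpl50 (AT1G15000; 669.7 and 508 to 283 and 266, -1.05 ± 0.18). SAG101 (AT5G14930), a partner in immune signalling, went from 206 and 234 to 85.3 and 101 (-1.11 ± 0.21, adjusted p = 0.00575), close to its wild-type signals of 96.7 and 95. The pentatricopeptide repeat gene PPR596 (AT1G80270) went from 1551 and 1485 to 946 and 837 (-0.76 ± 0.16; not called without double-mutant replicate 2, adjusted p = 0.075), against 797 and 999 in wild type.

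Some genes that were high in sicy-192 showed no call between the mutants. Of 6 tested genes of the mitochondrial stress response, 3 were called higher in sicy-192 than in wild type, namely AT2G21640, AT5G51440 and AT2G04050. Between the mutants, 1 of the 6 rose and 5 did not pass, among them genes that were not high in sicy-192. AT2G21640 was at 347 and 190.2 in wild type, 4824 and 4804 in sicy-192 and 3877 and 3432 in the double mutant (-0.40 ± 0.23, adjusted p = 0.261). The mitochondrial small heat shock gene AT5G51440 was at 167 and 110.4 in wild type, 2551 and 3363 in sicy-192 and 2248 and 2301 in the double mutant (-0.36 ± 0.20, adjusted p = 0.243). AT2G04050, for a transporter of the MATE family, rose further, from 943 and 1867 to 3331 and 3307 (1.31 ± 0.29; not called without double-mutant replicate 1 or 2, adjusted p up to 0.064). Of 6 anthocyanin genes, 0 were called by limma and 0 had an unadjusted p under 0.05. DFR (AT5G42800), for dihydroflavonol reductase, was at 1953 and 2808 in wild type, 6797 and 7524 in sicy-192 and 7901 and 8962 in the double mutant (0.23 ± 0.18, adjusted p = 0.413). ICL (AT3G21720), for isocitrate lyase of seed oil use, was at 1992 and 1346 in wild type, 10628 and 10771 in sicy-192 and 8400.1 and 7191 in the double mutant (-0.46 ± 0.19, adjusted p = 0.12).

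Genes tied to sugar status moved in both directions, with 1 rise and 2 falls among 5 tested genes of starch and sucrose metabolism and 1 rise and 1 fall among 2 genes repressed by sugar. AT3G15450, which sugar is known to repress, was at 441 and 657 in wild type, 149 and 86.5 in sicy-192 and 915 and 559 in the double mutant (2.49 ± 0.30, adjusted p = 0.000821). ATSPS4F (AT4G10120), for sucrose phosphate synthase, went from 107 and 66.6 to 301 and 414 (1.87 ± 0.23, adjusted p = 0.000871), still below its wild-type 928 and 822. APL3 (AT4G39210), for a large subunit of the first enzyme of starch synthesis that sugar is known to induce, went down from 1281 and 1239 to 718 and 541 (-1.0 ± 0.24; not called without sicy-192 replicate 1 or 2 or double-mutant replicate 2, adjusted p up to 0.125), with 451 and 775 in wild type. PPDK (AT4G15530), for pyruvate phosphate dikinase, also fell, from 1533 and 1352 to 912 and 788 (-0.75 ± 0.21; not called without sicy-192 replicate 1 or 2 or double-mutant replicate 1 or 2, and without the filter on low signals or without the variance trend, adjusted p up to 0.175). Among the remaining families, 1 of 9 tested cytochrome P450 genes, 1 of 2 auxin response genes and the 1 tested peroxidase gene fell, and 0 of 3 WRKY genes were called by limma, with 1 at an unadjusted p under 0.05.

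The largest nuclear changes were taken from called genes whose groups did not overlap and whose higher group had a mean signal of at least 200. This ranking used the arrays of both mutants, which also enter the comparisons with wild type. The classes given below are therefore not independent of the selection. Called rises had a median of 0.88 and reached 4.27, and called falls had a median of -0.83 and reached -3.11. AT3G28270 had the largest rise, from 59.6 and 22.6 to 1286 and 819.7 (4.27 ± 0.45, adjusted p = 0.000424), and its wild-type signals were 854 and 319. It was 1 of 5 among the 20 largest rises that were called as below wild type in sicy-192 and were not called against wild type in the double mutant. The universal stress protein gene AT3G62550 had 931 and 1127 in wild type, 112 and 62.1 in sicy-192 and 775 and 579 in the double mutant (2.78 ± 0.25). AT4G28080, for a tetratricopeptide repeat protein, had 4378 and 3544 in wild type, 579 and 409.9 in sicy-192 and 3459 and 3306 in the double mutant (2.75 ± 0.18). AT1G13650 (2.83 ± 0.26) and AT3G15450, above, were the others, and the adjusted p of the 5 genes between the double mutant and wild type ran from 0.0691 to 0.399.

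Of the 20 rises, 8 were not called between sicy-192 and wild type and were called higher in the double mutant than in either. AT5G42760 was at 683 and 426 in wild type, 385 and 305 in sicy-192 and 3411 and 3556 in the double mutant (3.28 ± 0.22, adjusted p = 7.68e-05; 2.65 against wild type). AT4G01870, for a protein related to TolB, went from 55.9 and 67.8 to 485 and 376 (2.51 ± 0.25), with 92.3 and 57.7 in wild type. COR15A, UGT84A3, GSTU25 and the 3 genes of the heat shock list were of this kind too. Another 6 genes, COR15B among them, were called as below wild type in sicy-192 and above it in the double mutant. AT2G29370, for a reductase related to tropinone reductase, went from 156 and 158 to 1039 and 1516 (2.88 ± 0.22) with 276 and 377 in wild type, and AT4G25170 from 196 and 181 to 1527 and 1579 (2.94 ± 0.15) with 691 and 603. AT1G72900, for a protein with a TIR domain, was at 114 and 106 in wild type, 12.2 and 3.76 in sicy-192 and 198 and 249 in the double mutant (3.33 ± 0.27). The others were AT3G51750, from 16.6 and 26.9 to 325 and 461 (3.43 ± 0.28), and AT1G01990, from 81.5 and 88.7 to 579 and 532 (2.50 ± 0.18), with wild-type signals of 156 and 104 for the former and 233 and 292 for the latter. AT1G72660, for a GTP-binding protein of the DRG family, was called higher at each step, with 35.1 and 14.0 in wild type, 132 and 60.5 in sicy-192 and 739.9 and 452 in the double mutant.

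Among the 20 largest falls, some were called higher in sicy-192 than in wild type and were not called between the double mutant and wild type. chr31 (AT1G05490), for a chromatin remodelling protein of the CLASSY family that acts in RNA-directed DNA methylation, was at 24.9 and 2.78 in wild type, 339 and 339.9 in sicy-192 and 31.6 and 30.1 in the double mutant (-2.92 ± 0.36, adjusted p = 0.000861). AT4G25330 (234 and 463 to 39.0 and 13.3) and AT3G61090 (248 and 365 to 22.6 and 20.6) followed the same course, with wild-type signals of 31.1 and 5.76 for the former and 22.9 and 3.84 for the latter. The lipase gene AT1G20120 of the GDSL family was at 32.0 and 24.1 in wild type, 380.2 and 334 in sicy-192 and 44.1 and 25.5 in the double mutant (-2.90 ± 0.27), and AT2G01610, for an inhibitor of the pectin methylesterase family, went from 332 and 342 to 64.2 and 30.5 (-2.53 ± 0.30) with 57.3 and 38.8 in wild type. AT4G29690 and AT4G29700 are adjacent genes of nucleotide pyrophosphatases, and went from 557 and 609.6 to 79.1 and 78.0 (-2.66 ± 0.19) and from 475 and 443 to 58.4 and 47.8 (-2.79 ± 0.20). The latter ended below wild type (-1.09, adjusted p = 0.00417). Several of these double-mutant and wild-type signals are close to 16, the value added before the log, which bounds the change that can be read.

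Other large falls went below wild type. AT3G05730, for a defensin-like peptide, was at 12541 and 11236 in wild type, 12025 and 10479 in sicy-192 and 2202 and 3190.1 in the double mutant (-2.08 ± 0.19, adjusted p = 0.000231). AT1G67910 went from 2617 and 2899 to 545 and 697 (-2.13 ± 0.16), with 1453 and 1285 in wild type. AT4G17470, for a thioesterase-like hydrolase, went from 283 and 284 to 38.0 and 11.8 (-2.95 ± 0.35), and AT1G13750, for a purple acid phosphatase, from 285 and 248 to 37.6 and 44.4 (-2.31 ± 0.20). The legume lectin gene AT1G53070 (1395 and 948 to 178 and 189, -2.55 ± 0.19) and the jacalin lectin gene AT1G52000 (410.1 and 329 to 74.0 and 35.5, -2.49 ± 0.46) fell as well. A further gene of the pectin methylesterase inhibitor family, AT3G47380 (-2.25 ± 0.24), was among them. AT2G47780, of the rubber elongation factor family, fell from 4751 and 5062 to 1545 and 976 (-1.98 ± 0.20) but stayed above its wild-type signals of 327 and 293.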

How the data were processed

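Signal intensities of RNA from cotyledons were deposited by the authors as 1 table of 22810 probe sets and 6 arrays. Per the submitters' processing notes they were made with GCOS, and the file headers do not give the algorithm. Each array was rescaled so that its mean, with 2% trimmed at each end, was 500, and log2(signal + 16) was analysed. The 64 control probe sets and those below the 35th percentile of mean signal were left out, which left 14785. One model over 3 groups of 2 arrays was fitted with limma 3.58.1 (lmFit, eBayes with a variance trend) in R 4.3.3, with Benjamini-Hochberg adjustment and a threshold of 0.05. The procedure was tested on simulated data with independent noise. These did not carry the deviations shared by same-numbered arrays, so the calls were not checked against them. The number of arrays limits the precision.

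GEO's platform annotation gave 1 gene for 13513 probe sets, several for 503 and none for 8730, and 13436 of the first were matched to RefSeq names and chromosomes (TAIR10.1). A gene with several tested probe sets was read from the one with the highest mean signal. Mitochondrion-encoded genes were recognised by their names, since they were not matched to a RefSeq entry here. Sequences of promoters were not analysed here.

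Genes were named as the 20 largest called nuclear changes in each direction, without overlap of the arrays and with a mean of at least 200 in the higher group, as plastid genes, or as the members of each gene list with the largest changes, called or not. The members and lists were chosen with earlier results of these data known. Counts per list speak of the named and tested members only, not of a whole pathway. Alternatives were other offsets, filters and normalizations, no variance trend, a replicate block, 4 arrays alone and each array left out.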

Additional observations from a re-analysis of the deposited data

Results flagged for a closer look

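Ribosomal RNA of the 25S type was read by a control probe set that lies outside the genes compared and had a mean signal of 8069.34 in the double mutant (7778 and 8361). The controls for it are the wild-type arrays, with 452 and 1763, and the sicy-192 arrays, with 1378 and 1173. Its cause was not tested.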

How the results depend on the processing

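With the replicate number as a block, the calls rose to 4917 probe sets, 2521 of them nuclear (1128 higher, 1393 lower), and 1 mitochondrion-encoded probe set passed, while the plastid calls were 63. The deviations of same-numbered arrays from their group means correlated at 0.329 to 0.436 over 3 pairs of groups, but only 2 numbers exist, so the arrays share a number and no stated pairing. Leaving out 1 array at a time gave 1456 to 3256 calls, 676 to 1608 of them nuclear (309 to 740 higher and 367 to 868 lower), 48 to 56 plastid calls and a plastid median of -1.86 to -1.44. The model then had fewer samples, and a lone array was assumed to vary like the other groups. Without the filter on low signals 1116 probe sets rose and 1236 fell. The other alternatives kept these counts within 1.5 times and the plastid median between -1.78 and -1.52. The medians within the replicate 1 and 2 arrays were chosen after seeing the data. Of 121 called genes followed, 89 kept the call under each of the 16 alternatives in which they were tested, and 32 lost it under at least 1. Some genes were below the filter in part of the alternatives. COR15B was tested in 15 of them and chr31 in 14. Of 28 genes not called, 17 gained a call under at least 1. Signs turned only for genes that were not called, in ranges over the arrays left out of -0.35 to 2.05 for LTI30, -0.24 to 0.07 for PYK10, -0.23 to 0.48 for cox1, -0.19 to 0.16 for nad4 (0.01 with arrays centred on their median), -1.41 to 0.50 for psbI, -2.22 to 0.43 for psbK and -0.07 to 0.21 for rps14; the cause was not tested. Signals near the added 16 limit the size of a measured change.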

Other observations

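Of 6401 tested probe sets without a gene name here, 693 rose and 726 fell. Among all 14785 tested probe sets, 1410 rose (9.54%) and 1650 fell (11.2%). The largest fall of all tested probe sets was among those without a gene name. Probe set 263242_at had 5529 and 5073 in wild type, 4614 and 4114 in sicy-192 and 132 and 90.4 in the double mutant (log2 change -5.12 ± 0.18, limma adjusted p = 2.88e-06). Probe set 244981_at went from 2512 and 2218 to 259.5 and 340.1 (-2.92 ± 0.18). In the other direction, 250351_at went from 271 and 61.6 to 4976 and 2153 (4.46 ± 0.61). Probe set 247814_at was at 418 and 271 in wild type, 4.08 and 4.70 in sicy-192 and 279 and 451 in the double mutant (4.19 ± 0.29). These probe sets were chosen after their values were seen.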
